A study of Homo sapiens with 27 samples.

Results

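Small nucleolar RNA (snoRNA) host transcripts are spliced RNAs whose introns carry snoRNAs, and 10 of them that encode no known protein were followed here. They are GAS5, SNHG1, SNHG5, SNHG6, SNHG7, SNHG8, SNHG12, SNHG15, SNHG16 and ZFAS1. They were taken by symbol from a table of 13523 genes, all 10 were found, and all 10 passed the filter on low values that left 13052 genes for testing. The cells were 501mel, an established human melanoma line high in the transcription factor MITF. Unedited (WT) cells had no treatment (CTRL), 12 h of HBSS, which supplies glucose but no amino acids, or 12 h of 250 nM Torin, a drug that blocks the growth kinase mTOR. Knockout cells lacked TFE3 (TFE3 KO), TFEB (TFEB KO) or both (DKO) and had 12 h of control conditions (CTRL) or of 250 nM Torin. The labels give no time for WT CTRL. Culture time may therefore differ in every comparison that uses it, the WT responses to HBSS and Torin included. The knockouts were made with Cas9 and each is a single clone per the study's methods, so genotype and clone cannot be told apart. The labels give 9 groups of 3 libraries and do not say that these came from separate experiments, so the p-values measure the spread between libraries, which may be technical. The columns labelled WT HBSS replicate 3 and WT Torin replicate 1 held the same value in each of the 13523 genes, and neither was used. That left 25 libraries, 2 each in WT HBSS and WT Torin and 3 in every other group.

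In a host gene, the snoRNAs are trimmed out of the excised introns and go on to guide the chemical modification of ribosomal RNA, box C/D snoRNAs guiding methylation and box H/ACA snoRNAs guiding the conversion of uridine to pseudouridine. The spliced exons of the noncoding hosts reach the cytoplasm, where ribosomes read their short reading frames, stop early and mark the transcript for nonsense-mediated decay. Their level therefore depends both on how often the gene is transcribed and on how fast the spliced RNA is broken down during translation. Many of these genes also start transcription at a C followed by a run of pyrimidines, the terminal oligopyrimidine (TOP) motif that ribosomal protein genes carry. TOP transcripts are translated or held back according to mTOR activity. Amino acid loss and Torin both lower mTOR signalling, and amino acid loss also engages the stress kinase GCN2.

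The values are normalised read counts from 3′ end libraries, scaled to a common library size, and are not divided by length because a transcript gives 1 read at its 3′ end. Depth ran from 4147050 to 6526392 reads per library, and the limit that a count of 0 sets, 3 reads, lay at values of 0.460 to 0.711. The member with the fewest reads, SNHG15, had 97 to 288 reads per library. TFE3 was 24.3, 23.8 and 24.0 in WT CTRL, 7.59, 5.06 and 6.24 in TFE3 KO CTRL, and 6.86, 5.93 and 6.26 in DKO CTRL. TFEB was low, at 3.45, 3.96 and 2.34 in WT CTRL, 0.911, 0.750 and 1.66 in TFEB KO CTRL, and 0.156, 1.05 and 0.783 in DKO CTRL. It was also low in TFE3 KO CTRL (0.177, 0.307 and 1.56). In Torin, TFEB was 3.45, 0.628 and 0.611 in TFEB KO, where replicate 1 reached the level of WT CTRL, and 0.769, 0.190 and 0.984 in DKO. TFE3 was 14.0, 9.13 and 9.15 in TFE3 KO Torin, above its CTRL by 0.68 on the log2 scale (adjusted p 0.00102, limma), beside 20.4 and 17.5 in WT Torin and 6.15, 6.26 and 8.46 in DKO Torin. The Torin response of TFE3 differed between TFE3 KO and WT (interaction 1.01, adjusted p 0.0404, limma). Reads at the 3′ end count transcripts and do not show an edited site. All 6 melanocyte markers were present, from 123 for TYR in its lowest library to 4464 for PMEL in its highest. Of 9 markers of fibroblasts, keratinocytes and leukocytes, 6 were not in the table, COL1A1 and LUM reached at most 5.06, and CD68, a lysosomal protein, lay between 29.5 and 74.2. With RNA from whole cultures, fewer cells expressing a gene and less RNA per cell cannot be told apart.

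The start of transcription is the part of these genes that the TOP motif concerns. It is shown for the 5 members with the longest run of C and T from the annotated start. The sequences are those of RefSeq on GRCh38.p14, which held a start for 8 of the 10 members. SNHG6 and SNHG15 were the members without an entry. Each stretch has 30 bases, 10 before the annotated start and 20 from it, read 5′ to 3′ on the gene's own strand. Capitals mark the unbroken run of C and T from the annotated start. The start of GAS5 is not among them, as its RefSeq entry has a run of 0. That entry also lies 163 bases upstream of the GENCODE span of the gene. It is still counted among the 8 below, as an entry without any of the letter patterns. Whether the start that GAS5 uses has them was not tested.
SNHG12, chr1:28581854-28581883, minus strand: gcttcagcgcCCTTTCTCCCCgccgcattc
ZFAS1, chr20:49278632-49278661, plus strand: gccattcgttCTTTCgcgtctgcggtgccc
SNHG5, chr6:85678714-85678743, minus strand: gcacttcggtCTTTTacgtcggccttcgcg
SNHG7, chr9:136728165-136728194, minus strand: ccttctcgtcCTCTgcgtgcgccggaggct
SNHG1, chr11:62855866-62855895, minus strand: gagattcgttCTCatttttctactgctcgt

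A C start with a run of at least 4 pyrimidines was present in SNHG5, SNHG7, SNHG12 and ZFAS1, 4 of the 8 members with an entry, GAS5 included in the 8. The same letters were present at 5.45% of all 35116 annotated promoters and at 44 of 63 starts of cytosolic ribosomal protein genes. The run was 11 bases long in SNHG12, 5 in SNHG5 and ZFAS1, 4 in SNHG7, 3 in SNHG1 and 1 in SNHG8. The annotated start of SNHG16 is a G, with a run of 0. Annotated starts can lie away from the position that cells use, and apart from GAS5 the RefSeq starts lay 0 to 1259 bases inside the outer end of the GENCODE span, farthest in SNHG12. A C with at least 4 further pyrimidines on the gene's strand anywhere from 10 bases before to 20 bases after the start was present in 6 of 8 members, against 39.2% of all promoters. The E-box CACGTG, which reads the same on both strands and is bound by the MITF family, was present in the 300-base promoter (250 bases before the start and 50 from it) of SNHG7 alone among the 8, against 7.26% of all promoters. A match in letters is a description of the window and not a binding site.

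**Figure D1:**
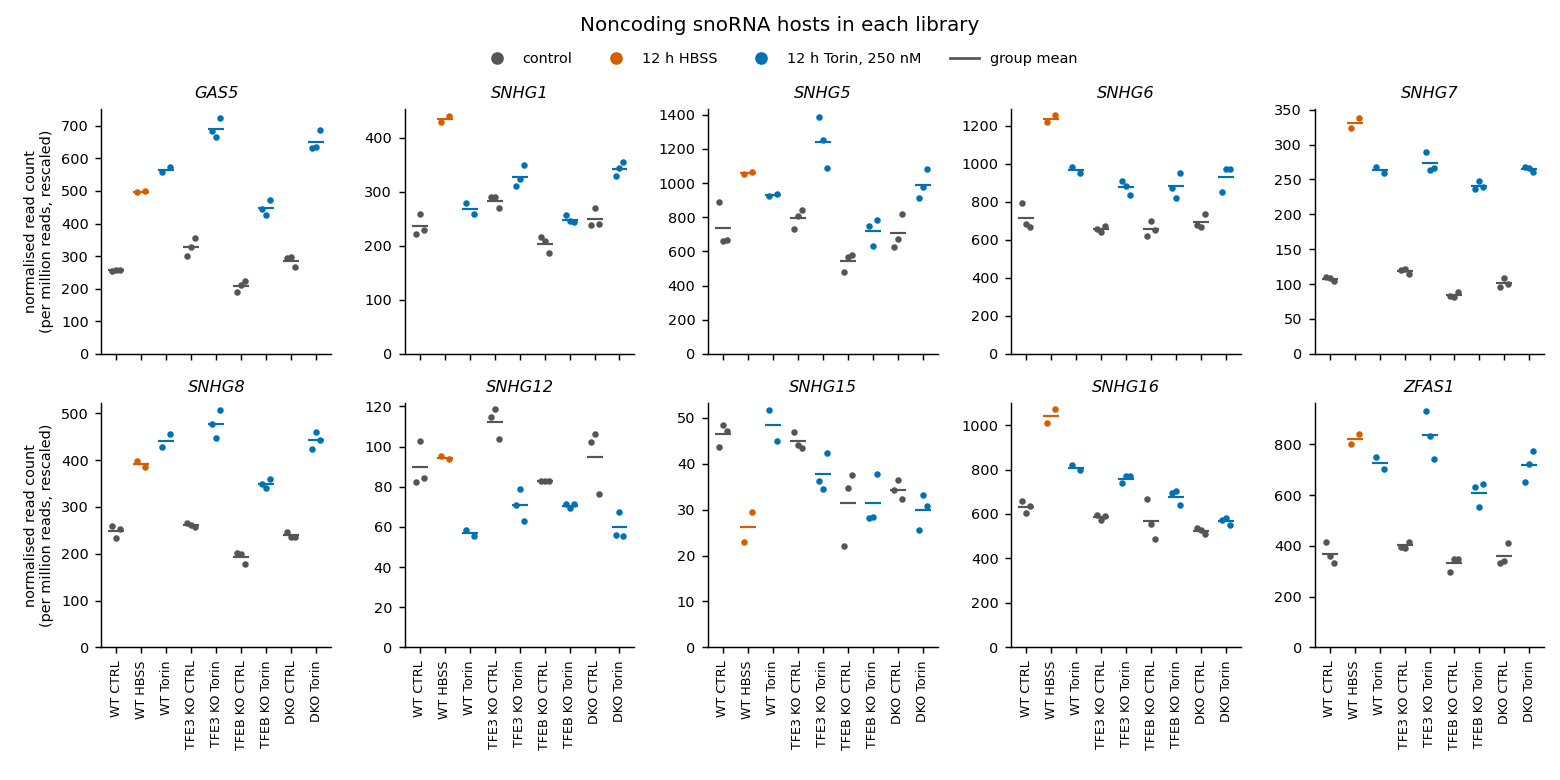
Normalised read count (vertical axis, scaled to a common library size, from 0) of each of the 10 hosts in each library (points) of the 9 groups (horizontal axis), with the group mean as a line. GAS5, SNHG5, SNHG6, SNHG7, SNHG8 and ZFAS1 have every HBSS and Torin point above every control point of the same genotype. SNHG12 has its Torin points below, and SNHG15 has its HBSS points below.

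HBSS against untreated WT cells asks what 12 h in HBSS does to the hosts. The paper gives serum in the growth medium and does not say whether the HBSS held it. Loss of amino acids and other differences between the media therefore cannot be told apart. Of the 10 members, 8 were higher in HBSS, 1 was lower and 1 was not called at an adjusted p under 0.05 (limma on log2(value + 1)). Over all 13052 genes tested, 23.6% were higher and 24.7% lower. The median log2 fold change was 0.75 over the members and -0.03 over all genes tested. Of the members, 2 rose by at least 1 on the log2 scale, SNHG7 and ZFAS1, as did 6.9% of all genes. Together the hosts took 0.341% ± 0.0200 (SD, n = 3) of reads in WT CTRL and 0.544% ± 0.00896 (SD, n = 2) in HBSS.

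SNHG7, host of a pair of H/ACA snoRNAs, had 109, 109 and 105 in WT CTRL and 323 and 338 in HBSS. Its libraries lay far apart, with a log2 fold change of 1.61 ± 0.08 (SE), 3.05-fold on the value + 1 scale, and an adjusted p of 1.12e-21. ZFAS1, named for its position antisense to the start of ZNFX1, had 417, 360 and 332 in WT CTRL and 802 and 839 in HBSS, a rise of 1.15 ± 0.10 on the log2 scale (adjusted p 1.26e-12, limma). GAS5, first found as a transcript that accumulates when growth stops, had 254, 258 and 259 in WT CTRL and 497 and 499 in HBSS. The spread within each group was a few units and the difference was 0.95 ± 0.08 on the log2 scale (adjusted p 3.08e-14, limma).

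SNHG1, the host of a row of C/D snoRNAs next to SLC3A2, had 221, 259 and 229 in WT CTRL and 429 and 440 in HBSS (log2 fold change 0.88 ± 0.08, adjusted p 1.40e-12, limma). SNHG6 had 794, 684 and 670 in WT CTRL and 1218 and 1256 in HBSS (0.79 ± 0.08, adjusted p 3.99e-12, limma). SNHG16 had 659, 603 and 638 in WT CTRL and 1010 and 1071 in HBSS (0.72 ± 0.08, adjusted p 1.62e-10, limma). In these 3 members the lowest HBSS library exceeded the highest control library by more than either group's own spread. SNHG8 had 259, 235 and 253 in WT CTRL and 398 and 385 in HBSS (0.65 ± 0.08, adjusted p 7.26e-10, limma). SNHG5 had 892, 661 and 666 in WT CTRL and 1056 and 1063 in HBSS (0.53 ± 0.14, adjusted p 0.00386, limma). WT CTRL replicate 1 was the highest control for SNHG5, SNHG6 and ZFAS1, and for SNHG5 it lay closer to the HBSS libraries than to the other controls.

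SNHG15 moved the other way and was the only member called lower. It had 43.5, 48.5 and 47.2 in WT CTRL and 23.0 and 29.5 in HBSS, or -0.81 ± 0.16 on the log2 scale (adjusted p 3.18e-05, limma), and its groups did not overlap. SNHG12 had 82.2, 103 and 84.5 in WT CTRL and 95.3 and 93.8 in HBSS, with its HBSS libraries inside the range of the controls. Its log2 fold change was 0.08, with a 95% interval of -0.16 to 0.31 and adjusted p 0.609 (limma). SNHG15 and SNHG12 were also the members with the lowest values.

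Torin against untreated WT cells asks what mTOR inhibition does to the hosts. Of the 10 members, 6 were higher, 1 was lower and 3 were not called (limma), where 20.5% of all genes tested were higher and 23.4% lower. These were GAS5, SNHG6, SNHG7, SNHG8, SNHG16 and ZFAS1. The median log2 fold change was 0.39 over the members and 0.00125 over all genes. GAS5 and SNHG7 rose by at least 1 on the log2 scale, as did 5.66% of all genes. The hosts took 0.516% ± 0.00510 (SD, n = 2) of reads in Torin. This comparison and that of HBSS share the 3 WT CTRL libraries.

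GAS5 reached 557 and 573 in Torin, a log2 fold change of 1.14 ± 0.08 over the controls given above (adjusted p 1.86e-16, limma). SNHG7 reached 267 and 260 (1.28 ± 0.08, adjusted p 6.74e-18, limma). ZFAS1 reached 750 and 704 (0.98 ± 0.10, adjusted p 1.44e-10, limma). In all 3 the lowest Torin library was far above the highest control, and for GAS5 both Torin libraries were also above both HBSS libraries.

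SNHG8 reached 428 and 455 (0.82 ± 0.08, adjusted p 1.83e-12, limma). SNHG6 reached 985 and 950 (0.44 ± 0.08, adjusted p 7.36e-06, limma) and SNHG16 reached 818 and 796 (0.35 ± 0.08, adjusted p 0.000314, limma). All 3 lay above every control library. SNHG12 fell to 58.6 and 55.7, or -0.64 ± 0.12 on the log2 scale (adjusted p 1.49e-05, limma), and its highest Torin library lay below its lowest control.

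SNHG1, SNHG5 and SNHG15 were not called in Torin with limma. SNHG1 and SNHG5 were called higher with edgeR (adjusted p 0.0155 and 0.0346), with DESeq2 (0.0207 and 0.0111), and in limma with median-of-ratios rescaling (0.0212 and 0.0329) or CPM without the scaling factor (0.0260 and 0.0337). SNHG1 had 280 and 259, which overlapped the controls (0.19, 95% interval 0.02 to 0.35, adjusted p 0.061, limma), and it was called without WT CTRL replicate 2 (adjusted p 0.0168). SNHG5 had 922 and 937, above every control (0.34, 95% interval 0.05 to 0.64, adjusted p 0.0552, limma), and it was called without WT CTRL replicate 1 (0.49, adjusted p 0.00406). SNHG15 had 51.8 and 45.0, within the range of the controls (0.06, 95% interval -0.26 to 0.38, adjusted p 0.797, limma).

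**Figure D2:**
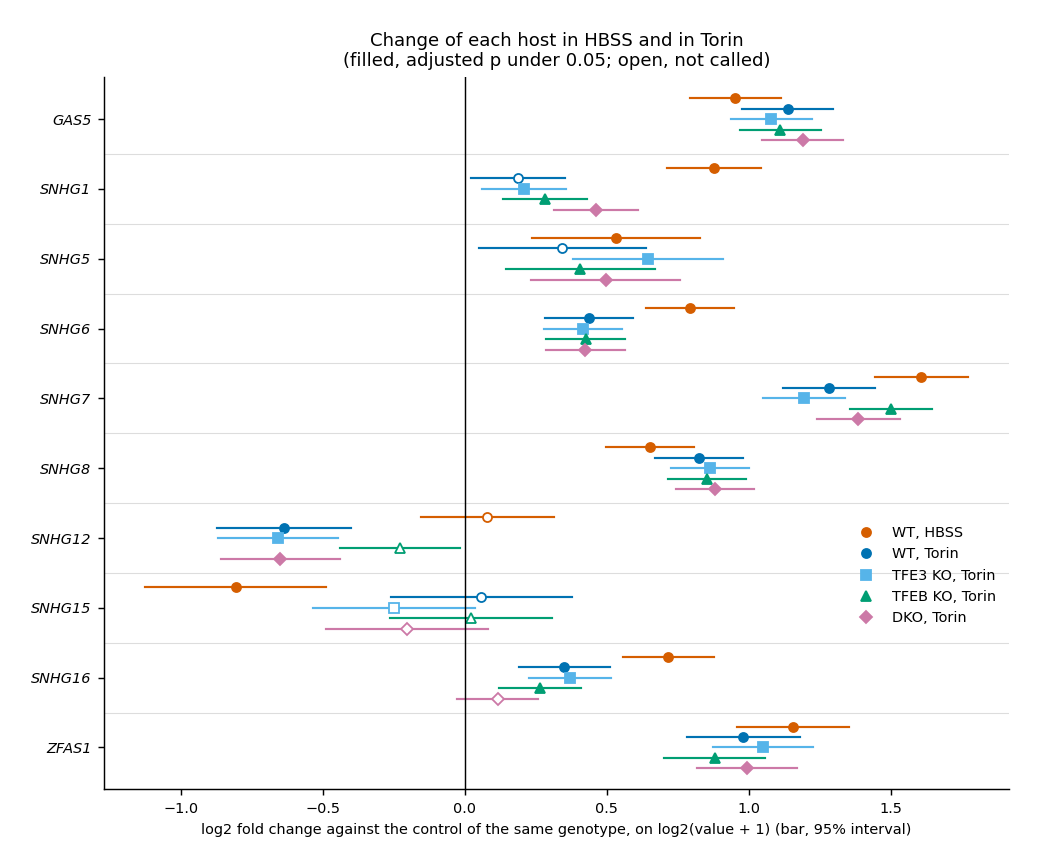
Log2 fold change of each host (vertical axis) against the control of the same genotype on log2(value + 1) (horizontal axis), for HBSS in WT and for Torin in WT and the 3 knockouts, with 95% intervals of the fit as bars. Filled symbols are called at an adjusted p under 0.05. GAS5, SNHG7, SNHG8 and ZFAS1 lie at 0.65 or more in all 5 comparisons, SNHG1 is at 0.88 in HBSS and at 0.46 or less in Torin, and SNHG12 and SNHG15 lie at or below 0.08.

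HBSS and Torin were also compared with each other in WT, 2 libraries against 2. Of the 10 members, 5 were higher in HBSS (SNHG1, SNHG6, SNHG7, SNHG12 and SNHG16) and 1 was lower (SNHG15), where 26.1% of all genes were higher and 23.1% lower (limma). SNHG12 and SNHG1 differed most among the higher ones, by 0.72 ± 0.13 (adjusted p 8.00e-06) and 0.69 ± 0.09 (adjusted p 1.40e-08) on the log2 scale. SNHG15 was lower in HBSS by -0.87 ± 0.17 (adjusted p 5.04e-05). SNHG6, SNHG7 and SNHG16 differed by 0.33 to 0.37.

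The other 4 members were not called different between HBSS and Torin. GAS5 was lower in HBSS by -0.18 (95% interval -0.36 to -0.01, adjusted p 0.0748, limma) and SNHG8 by -0.17 (-0.34 to -0.00460, adjusted p 0.0826). Both were called lower in HBSS with edgeR (adjusted p 0.0291 and 0.0346), with DESeq2 and with 2 other scalings. SNHG5 differed by 0.19 (-0.13 to 0.51) and ZFAS1 by 0.17 (-0.04 to 0.39), intervals that include 0. The hosts therefore fell into sets by their values: GAS5 and SNHG8 were at least as high in Torin as in HBSS, SNHG1 and SNHG12 were clearly lower in Torin, and SNHG15 was lower in HBSS.

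The knockouts ask whether TFE3 and TFEB, transcription factors that enter the nucleus when mTOR is inhibited, are needed for these changes. In TFE3 KO, Torin raised 8 members and lowered 1 (limma; 25.4% of all genes higher, 26% lower). In TFEB KO it raised 8 and lowered 0 (17.4% higher, 21% lower). In DKO it raised 7 and lowered 1 (25.4% higher, 26.2% lower). The members' median log2 fold change was 0.53 in TFE3 KO, 0.42 in TFEB KO and 0.48 in DKO, and the median over all genes was 0.02, 0.00319 and 0.02. Rises of at least 1 on the log2 scale were seen in 3, 2 and 2 members, and in 6.98%, 3.36% and 6.83% of all genes.

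GAS5 went from 294, 296 and 265 in DKO CTRL to 633, 634 and 687 in DKO Torin, a rise of 1.19 ± 0.07 on the log2 scale (adjusted p 3.53e-19, limma). In TFE3 KO it went from 300, 327 and 356 to 684, 666 and 724 (1.08 ± 0.07), and in TFEB KO from 188, 211 and 222 to 444, 427 and 473 (1.11 ± 0.07). Every Torin library was above every control library of its genotype. SNHG7 went from 95.3, 108 and 99.4 to 268, 266 and 261 in DKO (1.38 ± 0.07), from 120, 121 and 115 to 289, 263 and 266 in TFE3 KO (1.19 ± 0.07), and from 83.1, 81.3 and 89.2 to 236, 248 and 239 in TFEB KO (1.50 ± 0.07). ZFAS1 went from 332, 339 and 410 to 653, 722 and 775 in DKO (0.99 ± 0.09), and its log2 fold change was 1.05 in TFE3 KO and 0.88 in TFEB KO. SNHG8 rose by 0.88 in DKO, 0.86 in TFE3 KO and 0.85 in TFEB KO. Each of these values had an adjusted p of at most 1.95e-10 (limma).

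SNHG6 rose by 0.42 ± 0.07 in each of the 3 knockouts. SNHG1 rose by 0.46 ± 0.07 in DKO, from 238, 269 and 240 to 329, 344 and 356, and by 0.28 in TFEB KO and 0.21 in TFE3 KO. The call for SNHG1 in TFE3 KO was lost without TFE3 KO CTRL replicate 3 (adjusted p 0.0834, limma) or TFE3 KO Torin replicate 3 (0.104). SNHG5 rose by 0.64 in TFE3 KO, 0.50 in DKO and 0.41 in TFEB KO, where the call was lost without TFEB KO CTRL replicate 1 (adjusted p 0.0768), Torin replicate 1 (0.0521) or Torin replicate 3 (0.0716). SNHG16 rose by 0.37 in TFE3 KO and by 0.26 in TFEB KO, the latter lost without TFEB KO CTRL replicate 3 (adjusted p 0.0753). In DKO it had 536, 527 and 511 in CTRL and 575, 581 and 549 in Torin, which did not overlap but were not called (0.11, adjusted p 0.175).

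SNHG12 fell in Torin in TFE3 KO, from 115, 119 and 104 to 71.0, 79.0 and 63.0 (-0.66 ± 0.10, adjusted p 6.93e-07, limma), and in DKO, from 102, 107 and 76.2 to 56.1, 67.5 and 55.7 (-0.65 ± 0.10, adjusted p 9.64e-07). In TFEB KO it had 83.1, 82.7 and 82.9 in CTRL and 71.2, 69.3 and 71.3 in Torin, a difference of -0.23 that was not called (adjusted p 0.0781). SNHG15 was not called in Torin in any genotype, with log2 fold changes of -0.25 in TFE3 KO, 0.02 in TFEB KO and -0.20 in DKO.

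The Torin response of each knockout was tested against that of WT as an interaction. None of the 10 members was called in TFE3 KO, TFEB KO or DKO with limma, edgeR or DESeq2, where limma called 1.06%, 1.16% and 0.506% of all genes in either direction. At an unadjusted p under 0.05 (limma) there were 0 members in TFE3 KO, 2 in TFEB KO and 2 in DKO. How many of all genes passed this limit was not counted, so these members are listed only as a description. SNHG12 differed by 0.41 in TFEB KO (95% interval 0.09 to 0.72, adjusted p 0.207), less of a fall than in WT, and SNHG7 by 0.22 (0.000491 to 0.44, adjusted p 0.366). In DKO, SNHG1 differed by 0.27 (0.05 to 0.50, adjusted p 0.351) and SNHG16 by -0.24 (-0.45 to -0.02, adjusted p 0.435). For GAS5 the intervals of the difference ran from -0.27 to 0.16 in TFE3 KO, -0.24 to 0.19 in TFEB KO and -0.16 to 0.27 in DKO, beside a rise of 1.14 in WT.

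The clones were also compared with WT without treatment. The labels give 12 h for the knockout controls and no time for WT CTRL, so culture time may differ as well as clone. In TFE3 KO, 3 members were higher and 0 lower (3.57% of all genes higher, 5.84% lower, limma). GAS5 was 300, 327 and 356, against 254, 258 and 259 in WT CTRL (0.35 ± 0.07, adjusted p 0.000467). SNHG1 (0.26, adjusted p 0.015) and SNHG12 (0.32, adjusted p 0.0385) were also higher, and each lost its call when TFE3 KO CTRL replicate 1 or 2, or WT CTRL replicate 1 or 3, was left out, with adjusted p-values up to 0.0926 for SNHG1 and 0.172 for SNHG12.

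In TFEB KO, 0 members were higher and 6 lower (7.46% of all genes higher, 7.18% lower, limma). These were SNHG15 (-0.58 ± 0.14, adjusted p 0.00333), SNHG5 (-0.44 ± 0.13, adjusted p 0.0245), SNHG8 (-0.37 ± 0.07, adjusted p 0.000154), SNHG7 (-0.35 ± 0.07, adjusted p 0.000632), GAS5 (-0.31 ± 0.07, adjusted p 0.00163) and SNHG1 (-0.21 ± 0.07, adjusted p 0.0438). Among these 6 called members the groups came closest for SNHG1, where the highest TFEB KO value was 216 and the lowest WT value 221. The other 4 members had log2 fold changes of -0.16 to -0.11. SNHG1, SNHG5 and SNHG15 each lost the call when 1 of the libraries was left out, SNHG1 without WT CTRL replicate 2 or 3 or TFEB KO CTRL replicate 2 or 3, SNHG5 without replicate 1 of either group, and SNHG15 without TFEB KO CTRL replicate 1, while SNHG16 gained it without that last library (adjusted p 0.00492). The call for SNHG1 was also lost with edgeR (adjusted p 0.0622), median-of-ratios rescaling (0.0501) and CPM without the scaling factor (0.318), and that for SNHG5 with CPM (0.0725).

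In DKO, 0 members were higher and 2 lower (5.64% of all genes higher, 7.49% lower, limma). SNHG16 was 536, 527 and 511, against 659, 603 and 638 in WT CTRL (-0.27 ± 0.07, adjusted p 0.00627). SNHG15 was 34.3, 36.4 and 32.4, against 43.5, 48.5 and 47.2 (-0.42 ± 0.14, adjusted p 0.037). The call for SNHG15 was lost without any 1 of the 3 DKO CTRL libraries or WT CTRL replicate 2 or 3 (adjusted p 0.0536 to 0.121). The directions in the single knockouts, higher in TFE3 KO and lower in TFEB KO for GAS5 and SNHG1, were each seen in 1 clone.

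Several hosts share their start region with a coding gene on the opposite strand, and starts within 1000 bases of each other that the table holds were found for 3 members. SNHG1 and SLC3A2, the heavy chain of amino acid transporters at the cell surface, start 51 bases apart without overlapping (SLC3A2 at chr11:62856004-62888880, plus strand). SLC3A2 had 454, 463 and 462 in WT CTRL, 956 and 942 in HBSS, and 282 and 270 in Torin. It rose in HBSS by 1.04 ± 0.08 (adjusted p 3.17e-15) and fell in Torin by 0.73 on the log2 scale (adjusted p 2.41e-10, limma). SLC3A2 also fell in Torin in TFE3 KO (-0.35), TFEB KO (-0.87) and DKO (-0.40), while SNHG1 rose in all 3. SNHG1 thus rose with SLC3A2 in HBSS and moved against it in Torin in the knockouts.

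ZFAS1 and ZNFX1, which codes for a helicase-like zinc finger protein, start 248 bases apart. ZNFX1 had 55.5, 85.1 and 82.4 in WT CTRL, 77.8 and 64.5 in HBSS, and 71.5 and 84.4 in Torin, so that its groups overlapped where those of ZFAS1 did not. Its log2 fold changes were -0.04 in HBSS (adjusted p 0.836) and 0.09 in Torin (adjusted p 0.671, limma). ZBTB37, whose start lies 800 bases from that of GAS5, was near the detection limit, at 0.657, 2.38 and 2.15 in WT CTRL. It was called neither in HBSS (adjusted p 0.0934) nor in Torin (adjusted p 0.216).

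**Figure D3:**
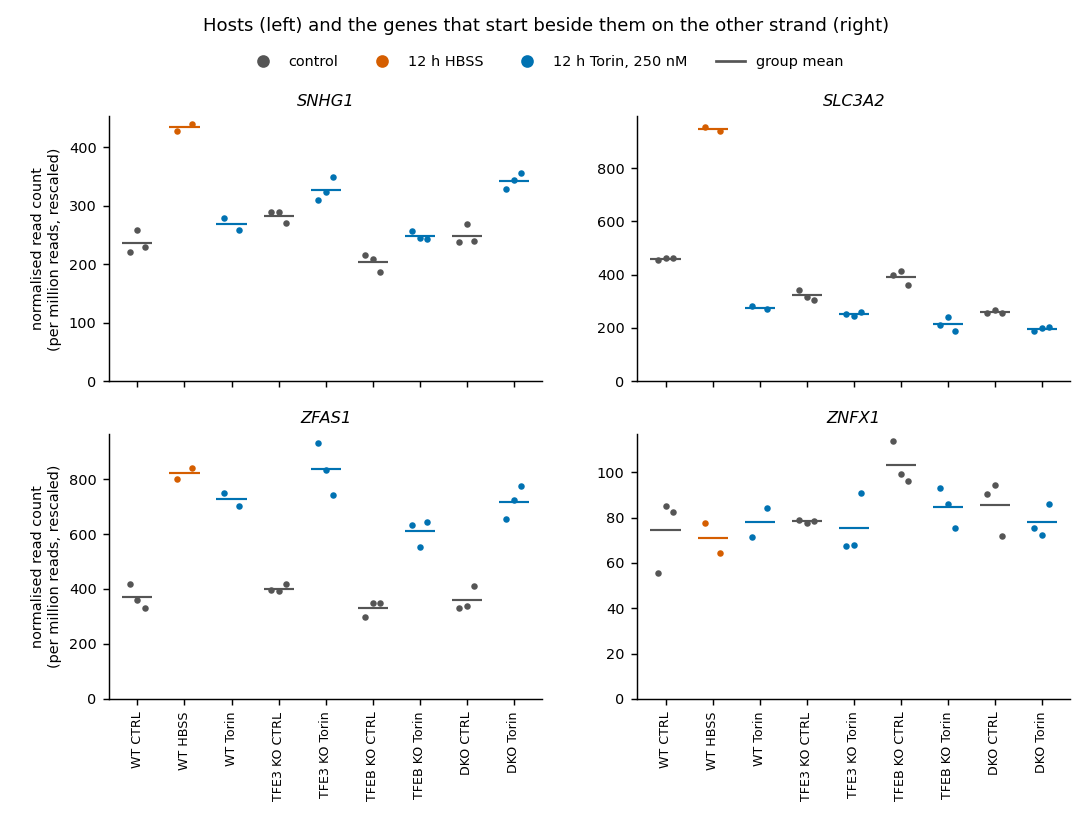
Normalised read count (vertical axis, from 0) of SNHG1 and ZFAS1 and of SLC3A2 and ZNFX1, which start beside them on the opposite strand, in each library (points) of the 9 groups (horizontal axis), with group means as lines. SLC3A2 is at 956 and 942 in HBSS and at 282 and 270 in WT Torin, on either side of its controls, and ZNFX1 stays between 55.5 and 114 in all libraries.

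Genes that overlap a host could share reads with it where strand was not used in counting, which the sources used here do not give. No gene in the table other than snoRNAs overlaps a member on its own strand. On the opposite strand, TRNAU1AP shares 8 bases with the end of SNHG12 and fell by 0.86 in HBSS (adjusted p 2.63e-06, limma). TRNAU1AP had 29.1, 28.1 and 33.6 in WT CTRL and 38.7 and 37.4 in Torin, where SNHG12 fell. The annotated span of SNHG16 holds ST6GALNAC2 and ST6GALNAC1. ST6GALNAC2 was 21.0, 25.7 and 22.2 in WT CTRL, 47.9 and 48.1 in HBSS, and 73.8 and 74.7 in Torin. SNHG16 was between 488 and 1071 in all libraries, and ST6GALNAC1 had at most 7.82.

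The annotated spans of the hosts hold 36 snoRNAs in RefSeq, 28 of the box C/D and 8 of the box H/ACA class. GAS5 (chr1:173858559-173868882 in GENCODE, minus strand) holds 11, from SNORD81 to SNORD74, and SNHG1 (chr11:62851978-62855953, minus strand) holds 8. SNHG12 (chr1:28578538-28583132, minus strand) holds 4, and SNHG16 (chr17:76557727-76670985, plus strand) and ZFAS1 (chr20:49278178-49299600, plus strand) hold 3 each. SNHG5 (chr6:85650491-85678932, minus strand) and SNHG7 (chr9:136721366-136728184, minus strand) hold 2 each, and SNHG6 (chr8:66920561-66926398, minus strand), SNHG8 (chr4:118278703-118285316, plus strand) and SNHG15 (chr7:44983019-44986961, minus strand) hold 1 each. Polyadenylated RNA was used, so mature snoRNAs, which lack a tail, are not what these libraries measure. The table held 11 of the 36, all at low values, and 9 passed the filter.

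None of those 9 was called in HBSS or in Torin against WT CTRL (limma). SNORD50A, within SNHG5, had the highest values, at 6.41, 17.0 and 12.3 in WT CTRL, 5.75 and 7.74 in HBSS, and 12.0 and 11.6 in Torin. SNORD81, within GAS5, had 5.59, 4.55 and 3.32 in WT CTRL, 2.99 and 2.72 in HBSS, and 4.22 and 5.69 in Torin. These did not rise where their hosts did in HBSS, with log2 fold changes of -0.66 (adjusted p 0.0639) and -0.49 (adjusted p 0.182). SNORD47, also within GAS5, had 4.27, 5.94 and 5.85 in WT CTRL and 8.97 and 7.12 in HBSS (0.51, adjusted p 0.141).

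Other lists of genes were described by the same counts, beside 23.6% of all genes higher and 24.7% lower in HBSS and 20.5% higher and 23.4% lower in Torin in WT. The first list holds other noncoding hosts. Of 19 listed, 14 were tested, and 9 were higher and 0 lower in HBSS, while 7 were higher and 3 lower in Torin in WT. Their median log2 fold change was 0.50 in HBSS and 0.42 in Torin. EPB41L4A-AS1 rose the most in both, from 35.7 ± 3.27 (SD, n = 3) to 121 ± 3.28 (SD, n = 2) in HBSS and to 148 ± 10.2 (SD, n = 2) in Torin, log2 fold changes of 1.73 and 2.02. The smallest rise called in HBSS was that of SNHG19 (0.33, adjusted p 0.00442). DANCR had the largest fall in Torin, from 111 ± 9.76 (SD, n = 3) to 51.5 ± 2.91 (SD, n = 2), or -1.09 on the log2 scale, and was 130 ± 5.71 (SD, n = 2) in HBSS (0.23, adjusted p 0.0602). DANCR, like SNHG12, was thus lower in Torin and not called in HBSS. The share of this list called lower in Torin, 3 of 14, was close to that over all genes. SNHG9 and SNHG17 were the other two that fell in Torin, by -1.04 and -0.51, and were named after their values were seen.

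Of 45 coding hosts tested, 22 were higher and 8 lower in HBSS and 21 were higher and 10 lower in Torin, with medians of 0.18 and 0.21. TAF1D (1.37) was highest in HBSS, EIF4A2 (0.94), an RNA helicase of translation initiation, was highest in Torin, and NOP56 was lowest in HBSS. The list shares 23 genes with the ribosomal proteins. Of 79 ribosomal protein genes, 32 were higher and 2 lower in HBSS and 46 were higher and 2 lower in Torin, with medians of 0.18 and 0.22, and RPS26 fell in both (-0.91 and -0.77). Of 24 translation factors with TOP starts, 12 were higher and 2 lower in HBSS and 12 higher and 0 lower in Torin, with medians of 0.26 and 0.26.

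Of 19 snoRNP proteins and assembly factors, 0 were higher and 16 lower in HBSS and 0 were higher and 13 lower in Torin, with medians of -0.41 and -0.37. NOP56, a core protein of box C/D snoRNPs and itself a host gene, went from 822 ± 22.4 (SD, n = 3) to 266 ± 4.79 (SD, n = 2) in HBSS and 485 ± 13.0 (SD, n = 2) in Torin, log2 fold changes of -1.62 and -0.76.

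Of 24 factors of nonsense-mediated decay and the decay of its products, 10 were higher and 5 lower in HBSS and 4 were higher and 10 lower in Torin, with medians of 0.11 and -0.23. MAGOHB, a subunit of the exon junction complex, fell the most in HBSS (-1.80, adjusted p 2.30e-13), DCP1A, of the decapping complex, rose the most (1.18), and PNRC2, which links UPF1 to decapping, fell the most in Torin (-0.86). Of 8 coding transcripts known as decay targets, 5 were higher and 1 lower in HBSS, with a median of 0.94, and 2 were higher and 2 lower in Torin, with a median of 0.21. Members of this list, ATF3 and DDIT3 among them, are also induced by the amino acid stress response. ATF3 went from 7.87 ± 2.05 (SD, n = 3) to 39.2 ± 5.42 (SD, n = 2) in HBSS and was 10.7 ± 0.251 (SD, n = 2) in Torin. Of 17 noncoding RNAs tested that host no snoRNA, 6 were higher and 2 lower in HBSS and 8 were higher and 4 lower in Torin, with medians of 0.10 and 0.33. The shares of decay targets called in Torin, in both directions, and of these noncoding RNAs called lower in Torin were close to those over all genes. So were the shares of other noncoding hosts and of coding hosts called lower in Torin. The same held for decay factors called lower in HBSS or higher in Torin.

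**Figure D4:**
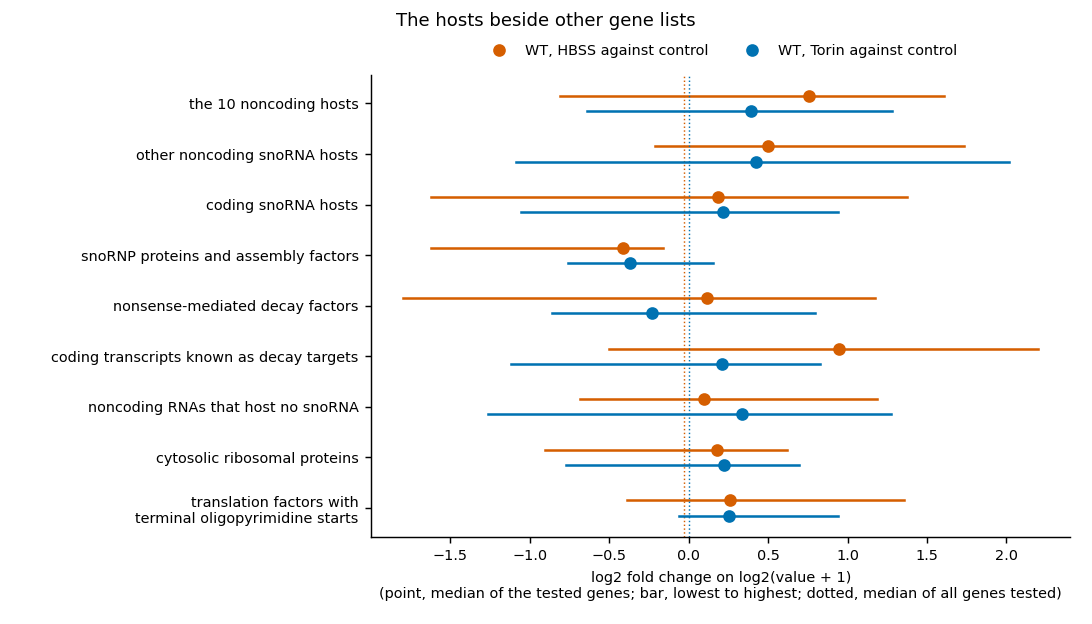
Median (point) and lowest to highest (bar) log2 fold change of the tested genes of each list (vertical axis) in HBSS and in Torin against WT CTRL (horizontal axis), with the median of all genes as dotted lines. The 10 hosts have medians of 0.75 in HBSS and 0.39 in Torin, the other noncoding hosts 0.50 and 0.42, and the snoRNP proteins -0.41 and -0.37.

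Among themselves the hosts shared a common pattern over the 9 groups, apart from SNHG12 and SNHG15. The correlation (Pearson's r over 9 group means) of each member with the mean of the 10 members was 0.97 for ZFAS1, 0.96 for SNHG7 and for SNHG8, 0.94 for GAS5 and 0.93 for SNHG5, and 0.77 to 0.88 for SNHG1, SNHG6 and SNHG16. It was -0.44 for SNHG12 and -0.13 for SNHG15. The members are part of that mean and the groups share libraries between genes, so these values are descriptions. Of 8431 other genes with a mean value of at least 10, the 5 whose group means were most like the members' mean were UCKL1 (r = 0.997), CCNB1IP1 (0.989), GNAS (0.986), GRAMD4 (0.983) and EIF2A (0.982). UCKL1 had log2 fold changes of 1.01 in HBSS and 0.74 in Torin. Among the other noncoding hosts in that ranking, LRRC75A-AS1 (also called SNHG29) came 38th (0.960) and EPB41L4A-AS1 came 88th (0.935). SNHG3 came 220th (0.896) and SNHG19 came 868th (0.761), so many other genes reached the 0.77 to 0.88 of SNHG1, SNHG6 and SNHG16. SNHG9 (-0.436), DANCR (-0.352) and SNHG17 (-0.275) had negative values.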

How the data were processed

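Polyadenylated RNA was sequenced as 3′ end libraries (QuantSeq Forward). Per the study's methods and the submitters' processing notes, reads were trimmed with cutadapt 2.10, mapped to hg38 with STAR 2.7.8a and normalised with edgeR. The counter, the annotation and the scaling are not given in the sources used here. The deposited signal is reads per gene symbol scaled to a common library size, as CPM divided by a factor per library. In every library 100% of values were whole multiples of 1 step (tolerance 0.01 reads), so the reads were recovered, and edgeR and DESeq2 were run on them as alternatives.

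The fit took genes that reached a value of 1 in 3 or more libraries, as log2(value + 1) with limma 3.58.1 (eBayes with trend and robust, R 4.3.3), 1 fit over 25 libraries without covariates. Tests were 2-sided with Benjamini-Hochberg adjustment over all genes in each comparison, with a call where the adjusted p was under 0.05. Log2 fold changes on this scale understate changes at low values. In HBSS, limma called 3075 genes higher and 3224 lower, edgeR 4.0.16 3129 and 3009, and DESeq2 1.42.0 3004 and 2952. In Torin in WT, the counts were 2671 and 3053, 2870 and 2597, and 2687 and 2586. The alternatives changed the pseudocount to 0.1, the minimum value to 5 or to none, or the scaling to median-of-ratios size factors or to CPM without the scaling factor (chosen after seeing the data). Others were a replicate block, the identical column kept in either group, a limit of 1 on the log2 scale, and leaving out each of 25 libraries in turn. Not every gene that overlaps a host on the opposite strand is reported here. Tables and figures used Python with pandas and matplotlib.

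The members and lists were chosen with earlier results of these data known. Besides the members, the genes named are TFE3, TFEB, MITF and the markers, genes that start beside or overlap a member, resident snoRNAs, the called genes at either end of each list, and the 5 genes most like the members. Symbols were placed in GENCODE v44 and RefSeq, and 5 of the 19 other noncoding hosts were not tested. Intervals and detection limits cover counting error only where they come from reads.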

Additional observations from a re-analysis of the deposited data

Results flagged for a closer look

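The column that stands identically under WT HBSS replicate 3 and WT Torin replicate 1 belongs to no group here. In it, 8 of the 10 hosts had a value above all 3 WT CTRL libraries. The share of all genes that did so was not computed, so this count only describes the column. The values were 512 for GAS5, 479 for SNHG1, 1006 for SNHG5, 1333 for SNHG6, 326 for SNHG7, 438 for SNHG8, 1161 for SNHG16 and 717 for ZFAS1. SNHG12 and SNHG15 were not above the controls. In that column SLC3A2 was 1032, beside 956 and 942 in HBSS and 282 and 270 in Torin, MITF was 1500, beside 1392 and 1454 in HBSS and 735 and 732 in Torin, and TFEB was 23.9, beside 30.4 and 28.0 in HBSS and 5.63 and 4.27 in Torin. All 3 values were nearer to the HBSS libraries than to the Torin libraries. The labels name both groups for the column, and a group was not assigned from its values.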

How the results depend on the processing

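Among values of single hosts under the alternatives, 1318 kept their direction and their side of the threshold, 46 lost and 23 gained a call, and 13 reversed, none of them called. With a limit of 1 on the log2 scale, the hosts called higher and lower were 2 and 0 in HBSS, 2 and 0 in Torin in WT, 3 and 0 in TFE3 KO, 2 and 0 in TFEB KO, 2 and 0 in DKO, and 0 in HBSS against Torin and in the untreated knockouts. In HBSS against Torin, 3 hosts were lower under median-of-ratios rescaling, CPM without the scaling factor, edgeR and DESeq2, where GAS5 and SNHG8 joined SNHG15. CPM without the scaling factor moved the median of all genes to -0.118 in HBSS and -0.140 in HBSS against Torin, and left 1 host lower in DKO. With the identical column kept as WT Torin, 0 hosts were lower in Torin, 1 was higher in HBSS than in Torin, 1 was higher in TFE3 KO and 0 were lower in DKO. In this setting SNHG1 lost its Torin call in TFE3 KO (adjusted p 0.212, limma) and TFEB KO (0.112), and SNHG16 in TFEB KO (0.0585). SNHG1 (0.398) and SNHG15 (0.0543) lost their calls in untreated TFEB KO against WT. SNHG1 (0.46, adjusted p 0.00798) and SNHG5 (0.38, adjusted p 0.0115) gained calls in Torin in WT. Leaving out 1 library at a time gave 1 to 3 hosts higher in TFE3 KO and 1 to 2 lower in DKO.

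The values that reversed were small. SNHG12 in HBSS was -0.031 for CPM without the scaling factor. SNHG15 in Torin in WT was -0.19 with the identical column kept as WT Torin and -0.041 to 0.16 leaving out single libraries, and in TFEB KO it was -0.21 to 0.17. In DKO against WT, leaving out single libraries gave -0.18 to 0.079 for SNHG5, -0.088 to 0.035 for SNHG6, -0.018 to 0.22 for SNHG12 and -0.13 to 0.054 for ZFAS1. The cause of these reversals was not tested.

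Replicate numbers were not used as pairs in the main fit. Deviations of same-numbered libraries from their group means correlated from -0.365 to 0.339 over 92 pairs (median 0.0127). Of these pairs, 18 were above 0.1, and the median for differently numbered libraries was -0.00708. Whether some of the groups were paired was not tested. A replicate block gave -0.011 for SNHG15 in Torin in WT and changed no call of a host. The members with the fewest reads were SNHG15 and SNHG12.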
